A study of Mus musculus with 28 samples.

Results

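The genes described here are those whose pooled FPKM (fragments per kilobase, scaled to library depth) of nascent RNA in the control arm was listed lower both when a forebrain culture was silenced and when it was driven. They were chosen by those values, and the authors' deposited log2 changes did not fall for all of them. A gene was taken when its vehicle value was at least 3 FPKM and at least 1.5 times both the value with tetrodotoxin (TTX) and that with bicuculline (BIC). Its mean count after scaling had to reach 50, its interval could not be shared with another gene name, and names beginning with Egr, Fos, Kcn, Hist, Pcdh, Rpl or Rps were left out. Of 23940 gene names with an FPKM, 80 met the rule, and 8307 passed its floors on level, count, interval and name without the fold. Falls of the members in the control arm are thus a description, with no test.

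Nascent RNA was measured by Bru-seq, in which newly made RNA takes up bromouridine and is captured and sequenced, in CD1 mouse cultures of cortex and hippocampus from embryonic day 18, made from pooled embryos and holding neurons, astrocytes and oligodendrocyte precursor cells. All cultures received a lentivirus on day in vitro 14, with either a control shRNA (shCtrl) or one that targets Rai1 (shRai1), a chromatin-binding protein gene. On day 17 they received vehicle (water), 1 µM TTX or 20 µM BIC for 4 hours, with 2 mM bromouridine in the last 20 minutes. The 16 libraries are shCtrl vehicle (replicates 1 and 2), shCtrl TTX (3), shCtrl BIC (replicates 2 and 3), shRai1 vehicle (3), shRai1 TTX (3) and shRai1 BIC (3). The files used here give 1 pooled FPKM per condition and the authors' deposited comparison tables, with no value per library, so spread is given as the deposited bounds or standard errors (SE). Nothing in the labels says that replicates came from separate dissections, so p-values measure the spread between these libraries, which may be technical.

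TTX blocks voltage-gated sodium channels and stops action potentials, whereas BIC blocks GABA-A receptors and raises network firing. Activity reaches the nucleus through calcium and kinase signalling to factors such as CREB, SRF and MEF2, and many genes induced in this way fall in silence and rise with added firing. A gene that is lower under both treatments falls in silence as those do but is also lower, not higher, with BIC. The rule picks such genes by pooled FPKM alone, and the deposited changes do not show this pattern for every member. In a mixed culture, fewer cells of a type and less RNA per cell cannot be told apart.

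Promoters of 4 members are shown because these genes met the rule and differ in role: the calcium channel regulator Rem2, the antiproliferative protein gene Tob1, the Polycomb subunit gene Cbx8 and the sterol pathway enzyme gene Hmgcs1. Tob1 and Cbx8 were chosen after their values were seen. Each run is the 250 bases before the RefSeq transcription start (GRCm38.p6), 5′ to 3′ on the gene's strand. Capitals mark matches on either strand to the cAMP response element (CRE, TGACGTCA), its core (TGACG), the E-box CACGTG or the sterol regulatory element (TCACNCCAC).
Rem2, chr14:54475850-54476099, plus strand: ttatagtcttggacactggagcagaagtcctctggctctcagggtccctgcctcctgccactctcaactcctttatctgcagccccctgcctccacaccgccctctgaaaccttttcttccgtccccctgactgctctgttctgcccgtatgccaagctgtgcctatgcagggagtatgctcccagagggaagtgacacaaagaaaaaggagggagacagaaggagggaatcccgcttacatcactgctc
Tob1, chr11:94211204-94211453, plus strand: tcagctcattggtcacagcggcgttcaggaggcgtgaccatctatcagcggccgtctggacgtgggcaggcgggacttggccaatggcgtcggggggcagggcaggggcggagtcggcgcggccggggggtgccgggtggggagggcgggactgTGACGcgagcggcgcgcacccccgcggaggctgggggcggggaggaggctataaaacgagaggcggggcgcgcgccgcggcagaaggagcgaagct
Cbx8, chr11:119040914-119041163, minus strand: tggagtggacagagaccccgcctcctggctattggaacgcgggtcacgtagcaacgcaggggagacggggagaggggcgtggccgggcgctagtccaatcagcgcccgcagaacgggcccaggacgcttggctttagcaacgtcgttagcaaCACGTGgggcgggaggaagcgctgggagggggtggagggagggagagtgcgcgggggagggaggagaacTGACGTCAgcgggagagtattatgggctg
Hmgcs1, chr13:119690101-119690350, plus strand: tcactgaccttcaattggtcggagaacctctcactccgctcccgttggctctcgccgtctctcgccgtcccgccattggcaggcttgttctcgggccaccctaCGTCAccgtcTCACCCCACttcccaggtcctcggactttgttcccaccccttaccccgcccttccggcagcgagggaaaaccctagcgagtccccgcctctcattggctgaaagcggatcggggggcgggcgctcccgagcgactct
The Rem2 run holds none of the 4 motifs, and Tob1 holds a CRE core 96 bases before the start. Cbx8 holds a full CRE 29 bases before the start and an E-box 98 bases before it. Hmgcs1 holds a CRE core and a sterol element, 147 and 137 bases before the start. Of the 60 members with a promoter in the RefSeq table, 18 (30%) held the CRE core, which every full CRE contains, against 19.79% of 27025 genes. The full CRE was found in 3 members (5%) against 1.769% of genes, the E-box in 8 (13.33%) against 6.86%, and the sterol element in 1, Hmgcs1, (1.667%) against 1.225%. The EGR motif GCGNGGGCG was matched in 6 members (10%) against 5.328% of genes, the CCAAT box in 23 (38.33%) against 37.49%, the AP-1 motif TGANTCA in 2 (3.333%) against 7.819%, and the CArG box in 0 against 1.624%. The sterol spelling was shortened after a longer one had matched no member, so nothing is read from its match in Hmgcs1. All matches describe letters in a window and were not tested.

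Members were mostly modest in level in the control arm. Their pooled vehicle FPKM ran from 3.01 to 156 with a median of 8.81, against a median of 11.9 over the 8307 genes past the floors, and their mean scaled count had a median of 233 against 562. Their intervals had a median of 16444.5 bases against 23903. The lower of the 2 FPKM folds (vehicle over drug) had a median of 1.60 and quartiles of 1.54 and 1.72, so most members sit close to the 1.5 that chose them. Just inside the threshold were Mcm2, a subunit of the replicative helicase, at 3.09, 2.06 and 2.01 FPKM with vehicle, TTX and BIC, Ccdc124 at 21.3, 14.2 and 9.60, and 2010107E04Rik at 92.8, 58.9 and 61.9. Just outside were D6Wsu163e, Ppp1r1a, which encodes a phosphatase inhibitor, and Nsmce1, with lower folds of 1.497, 1.497 and 1.496. The condition on names removed 6 genes that met all else, Egr1, Egr2, Egr3, Kcnj4, Kcns3 and Kcnv1, and the condition on intervals removed 12, among them Srf. No member's interval overlaps that of another gene name.

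**Figure D1:**
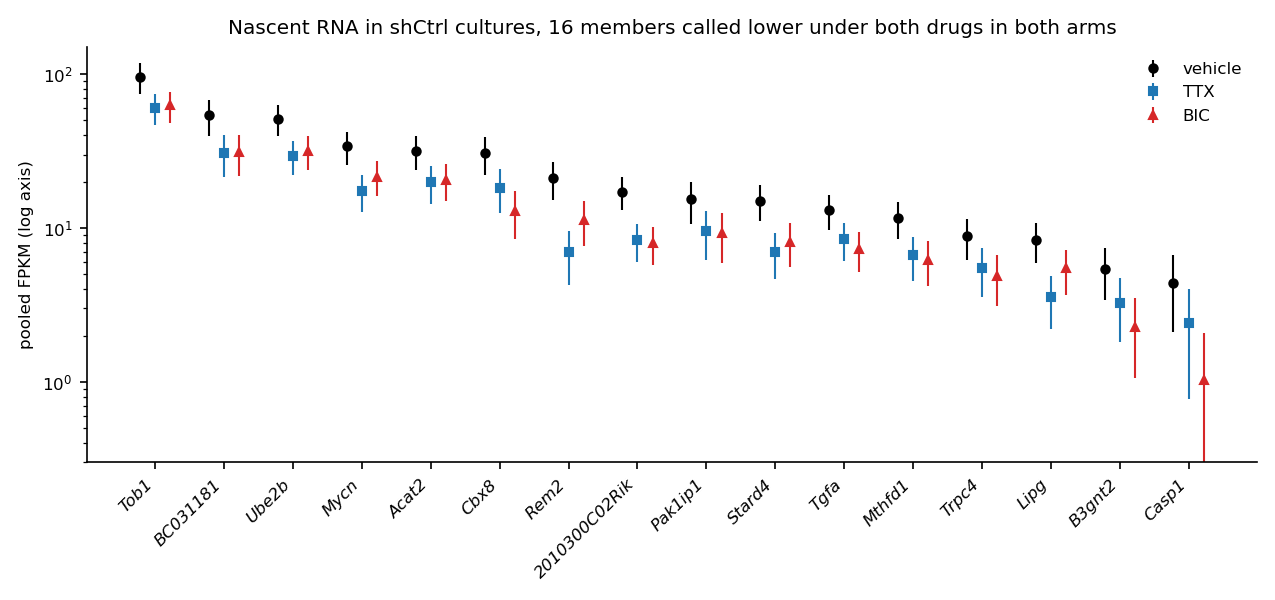
Pooled FPKM (log axis) in shCtrl vehicle, TTX and BIC for the 16 members that the authors' deposited tables call lower under both drugs in both arms; bars are the deposited bounds, and the lower bound of Casp1 with BIC is 0 and runs off the axis. Vehicle lies above both drugs for each gene, by the rule that chose it.

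How far the members fell depended on which of the authors' summaries was read. On the FPKM scale the median log2 ratio was -0.77 with TTX and -0.83 with BIC, both set by the rule. In the authors' deposited tables for the same control libraries the median log2 change was -0.33 with TTX and -0.41 with BIC. Those deposited tables called 35 members lower with TTX (background 14.9% of all tested genes, 18.6% of the genes past the floors) and 44 with BIC (background 17.0%), and 29 with both (2.08% and 2.62%). The rule used these libraries, so nothing is read from the counts. On the deposited scale 15 members reached a 1.5-fold fall under both drugs, and 22 had at least 1 change at or above 0. Across members, the FPKM ratio and the deposited change had a Pearson r of 0.53 for TTX and 0.35 for BIC, against 0.80 and 0.79 across the 8307 genes, as a description over genes that share the same libraries.

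Bounds on the pooled FPKM were apart for few members. The vehicle bounds lay above the bounds of both drugs for 5 members, Metap1d, 2010300C02Rik, Rem2, Stard4 and Hmgcs1. Hmgcs1 is the single member whose value (156 FPKM) lies outside its own bounds (61.4 to 97.2), at 1.97 times their midpoint, and the table places it on an unplaced part of chromosome 13. Its values with TTX and BIC, 82.0 and 101 FPKM, also lie above their bounds (31.0 to 49.4 and 37.0 to 58.5). Whether its values sum more than 1 copy of the gene was not tested, and its FPKM levels are uncertain. Metap1d, a mitochondrial methionine aminopeptidase gene, was listed at 22.5, 6.71 and 8.15 FPKM with vehicle, TTX and BIC. Its log2 changes in the authors' deposited shCtrl tables were 0.14 ± 0.15 (SE) with TTX and -0.36 ± 0.17 with BIC, and neither was called. Nmnat1, which encodes the nuclear enzyme of NAD synthesis, had the highest lower fold, 4.205, from 3.50, 0.832 and 0.450 FPKM. The deposited shCtrl tables gave Nmnat1 changes of -0.10 ± 0.20 and 0.30 ± 0.22, also not called, so the member that leads on one scale does not fall on the other.

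**Figure D2:**
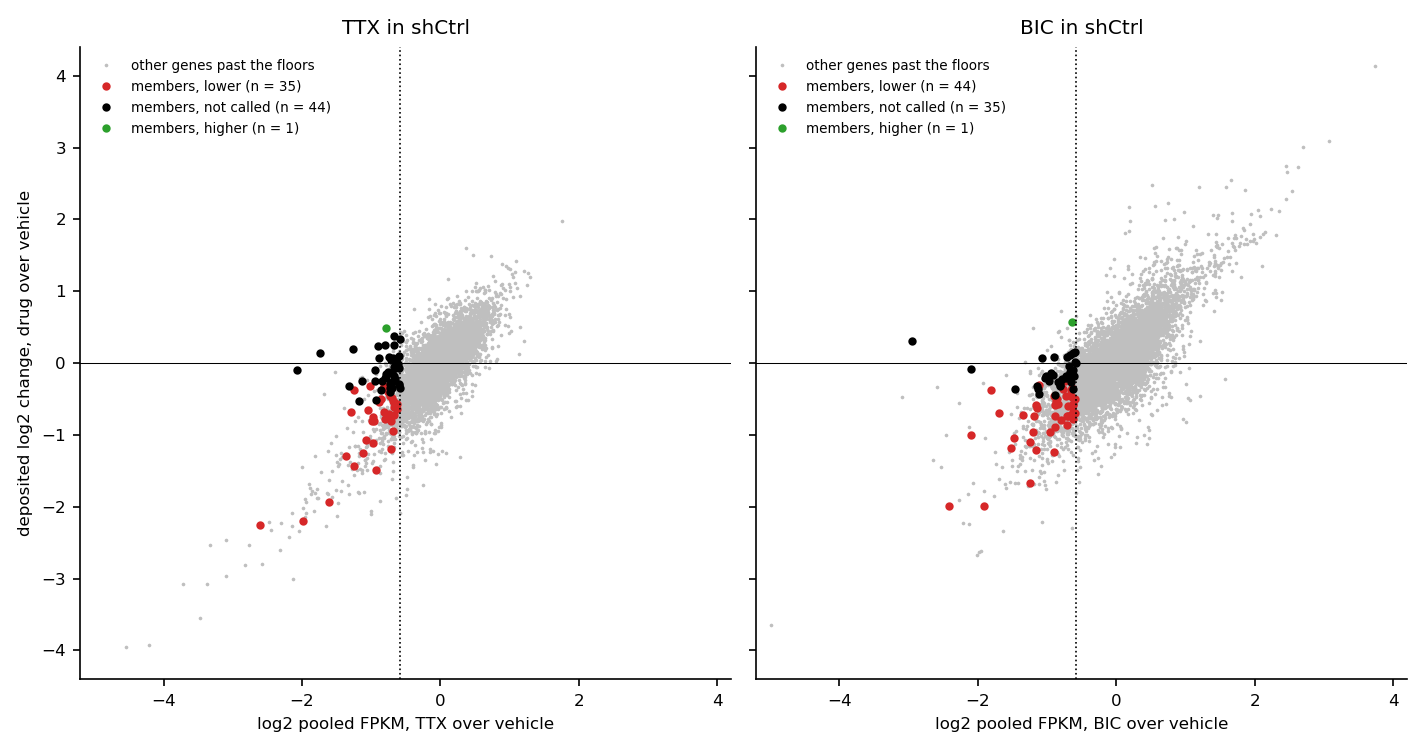
Log2 ratio of pooled FPKM (x axis) against the deposited log2 change (y axis) for TTX and BIC in shCtrl, with the 80 members coloured by the deposited call over the other genes past the floors; the dotted line is the 1.5-fold threshold of the rule. All members lie left of the line by choice, while 15 of them with TTX and 10 with BIC lie at or above 0 on the deposited scale.

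The shRai1 libraries entered the choice of members through the floor on the mean scaled count alone, which averages all 16 libraries, and not through any fold. Their TTX and BIC responses are thus the reading that the fold did not use. With TTX, 31 of 80 members were lower in the authors' deposited table (38.75%, background 16.8% of all tested genes and 21.9% of the genes past the floors), 8 were higher (10%, background 13.7% and 14.6%) and 41 were not called. With BIC, the deposited table called 41 lower (51.25%, background 21.3% and 28.9%), 3 higher (3.75%, background 21.3% and 27.6%) and 36 neither way. Over members the median log2 change in those deposited tables was -0.19 with TTX and -0.32 with BIC, against -0.02 and -0.03 over the genes past the floors. Both responses were called lower for 22 members (27.5%), where the background was 3.00% of all tested genes and 3.84% of the genes past the floors. That share was 4.95% (18 of 364) among genes that met the fold under TTX alone in shCtrl, and 6.25% (61 of 976) among genes that met it under BIC alone. Both responses are measured against the same shRai1 vehicle libraries, and no test was made of their joint count.

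Many members were not called lower under both drugs in the shRai1 arm, although 48 of the 80 (60%) had negative changes under both in the deposited tables, against 22.1% of the genes past the floors. Of the 58 not so called, 8 were lower with TTX and not called with BIC (10% of the 80, against 7.10% of the genes past the floors), and 16 were lower with BIC and not called with TTX (20% against 17.7%). Called under neither drug were 23 (28.75% against 31.1%), so these 3 shares lay near the background. In opposite directions 4 were called (5% against 18.3%), and 7 were called higher under 1 drug alone (8.75% against 20.02%). Among the 22 lower under both, 14 had the larger fall with TTX and 8 with BIC. Members that the deposited shCtrl tables called lower under both drugs were called lower under both in shRai1 in 16 of 29 cases, and the remaining members in 6 of 51. Both shRai1 changes were negative in 28 of those 29, with medians of -0.60 with TTX and -0.50 with BIC in the deposited tables, and in 20 of the 51, with medians of -0.02 and -0.25. This split uses the rule's own libraries, and the difference was not tested.

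**Figure D3:**
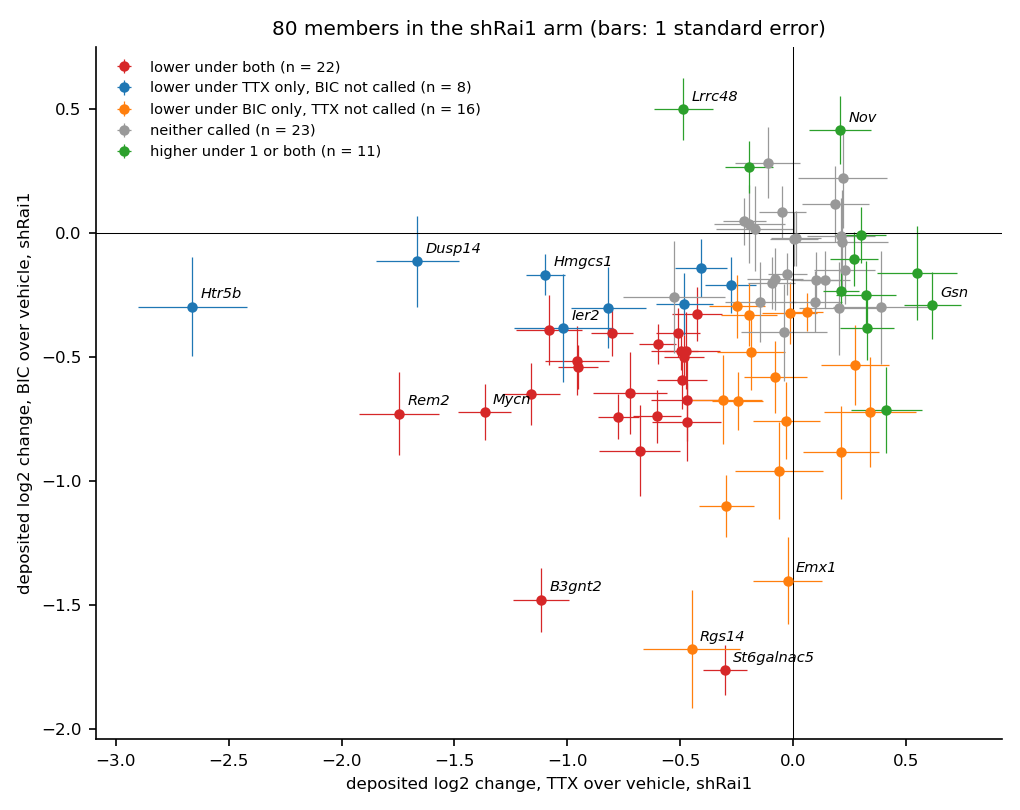
Deposited log2 change with TTX (x axis) against that with BIC (y axis) in the shRai1 arm for the 80 members, coloured by call, with bars of 1 standard error. The 22 genes called lower under both drugs lie in the lower left, 8 are called lower with TTX alone, 16 with BIC alone, and 11 are called higher under at least 1 drug.

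Called lower in all 4 drug comparisons of the deposited tables were 16 members (20% of 80, background 1.19% of all tested genes): 2010300C02Rik, Acat2, B3gnt2, BC031181, Casp1, Cbx8, Lipg, Mthfd1, Mycn, Pak1ip1, Rem2, Stard4, Tgfa, Tob1, Trpc4 and Ube2b. Acat2, BC031181, Cbx8, Lipg, Mthfd1, Mycn, Pak1ip1, Tgfa, Tob1 and Ube2b are named because of these calls, after their values were seen. Their 4 calls include the shCtrl tables, so the count is a description. In both arms 10 of the 16 fell more with TTX and 4 more with BIC, and the other two changed order between arms.

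Among the members that act in signalling are Rem2, Trpc4 and Tgfa. Rem2 (chr14:55094937-55099271, mm9) encodes a small GTPase that restrains voltage-gated calcium channels and is itself induced by activity. Its pooled FPKM in shCtrl was 21.1 with vehicle (bounds 15.2 to 26.9), 6.94 with TTX (4.25 to 9.62) and 11.3 with BIC (7.61 to 14.97), so silence gave the lowest level and added firing an intermediate one. In the deposited shRai1 tables Rem2 fell by 1.75 ± 0.18 (SE, log2) with TTX (adjusted p = 4.58e-21) and by 0.73 ± 0.17 with BIC (adjusted p = 6.01e-05). Trpc4 (chr3:53959979-54122393), a calcium-permeable cation channel subunit gene, stood at 8.83, 5.47 and 4.89 FPKM with vehicle, TTX and BIC. It fell in the deposited shRai1 tables by 0.80 ± 0.09 with TTX (adjusted p = 3.35e-16) and by 0.40 ± 0.09 with BIC (adjusted p = 7.11e-05). Tgfa (chr6:86145245-86225443), which encodes a ligand of the EGF receptor, was at 13.0, 8.45 and 7.26 FPKM. Its deposited shRai1 changes were near each other in size, -0.77 ± 0.09 with TTX and -0.74 ± 0.09 with BIC (adjusted p = 1.33e-15 and 1.09e-14).

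Htr5b, Dusp14 and Ier2 were called lower under both drugs in the deposited shCtrl tables, where their BIC changes were -1.05, -0.58 and -0.70, and with TTX alone in the shRai1 tables. Htr5b (chr1:123406350-123425042), a serotonin receptor gene, was listed at 5.33, 0.875 and 1.91 FPKM with vehicle, TTX and BIC, the lowest level being in silence. Its TTX response in the deposited shRai1 table was the largest fall of the members, -2.66 ± 0.24 (log2, adjusted p = 6.85e-26), while its BIC change of -0.30 ± 0.20 was not called (adjusted p = 0.242). Dusp14 (chr11:83861547-83881859), a dual-specificity phosphatase gene, was at 109, 27.3 and 70.7 FPKM, again lowest in silence. Its deposited shRai1 changes were -1.66 ± 0.18 with TTX (adjusted p = 5.42e-18) and -0.11 ± 0.18 with BIC (adjusted p = 0.669). Ier2 (chr8:87185230-87186751), an immediate-early gene, stood at 119, 46.2 and 78.8 FPKM and in the deposited shRai1 tables changed by -1.02 ± 0.22 with TTX (adjusted p = 3.73e-05) and -0.38 ± 0.22 with BIC (adjusted p = 0.155).

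Others were called with BIC alone in that arm. Pde7b (chr10:20117810-20444874), which encodes a cAMP-degrading phosphodiesterase, was at 8.01, 4.93 and 4.11 FPKM, with deposited shRai1 changes of -0.30 ± 0.12 with TTX (adjusted p = 0.0528) and -1.10 ± 0.12 with BIC (adjusted p = 1.16e-17). Rgs14 (chr13:55471093-55486048), a regulator of G-protein signalling, was at 4.81, 2.13 and 1.28 FPKM, with deposited shRai1 changes of -0.45 ± 0.21 (adjusted p = 0.0993) and -1.68 ± 0.24 (adjusted p = 1.4e-11). Emx1 (chr6:85137925-85154457), a homeobox factor of cortical excitatory neurons named after its values were seen, was at 7.67, 4.79 and 2.67 FPKM. It fell with BIC in the deposited shRai1 table by 1.40 ± 0.17 (adjusted p = 8.89e-15), beside a TTX change of -0.02 ± 0.15.

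Mycn, Tob1 and Cbx8, which act in gene regulation, were lower in all 4 comparisons. Mycn (chr12:12942899-12948642) encodes the neuronal MYC family factor and was at 34.0, 17.3 and 21.6 FPKM with vehicle, TTX and BIC. In the deposited shRai1 tables it fell by 1.37 ± 0.12 with TTX (adjusted p = 9.89e-30) and by 0.72 ± 0.11 with BIC (adjusted p = 1.53e-09). Tob1 (chr11:94072768-94076806), whose product recruits the deadenylation machinery and restrains proliferation, was at 96.2, 60.3 and 62.5 FPKM, with the 2 drug levels near each other. Its deposited shRai1 changes, -0.42 ± 0.11 with TTX and -0.33 ± 0.11 with BIC (adjusted p = 0.000774 and 0.00885), had the smallest sum of the 16. Cbx8 (chr11:118899750-118902227), 1 of the 3 members with a full CRE in the promoter, was at 30.6, 18.3 and 13.0 FPKM, the lowest level being with BIC. Its deposited shRai1 changes were -0.47 ± 0.15 with TTX (adjusted p = 0.0102) and -0.76 ± 0.16 with BIC (adjusted p = 7.88e-06).

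A pair of glycan synthesis genes fell more with BIC than with TTX. B3gnt2 (chr11:22734739-22760336), which extends poly-N-acetyllactosamine chains, was at 5.396, 3.28 and 2.28 FPKM with vehicle, TTX and BIC. In the deposited shRai1 tables it fell by 1.12 ± 0.12 with TTX (adjusted p = 1.03e-17) and 1.48 ± 0.13 with BIC (adjusted p = 4.05e-29). St6galnac5 (chr3:152483674-152645171), a brain sialyltransferase gene named after its values were seen, was at 12.6, 7.95 and 2.36 FPKM. Its BIC change of -1.76 ± 0.10 was the largest BIC fall of the members in the deposited shRai1 table (adjusted p = 1.52e-67), with a TTX change of -0.30 ± 0.10 (adjusted p = 0.00868). The deposited shCtrl table gave St6galnac5 a TTX change of -0.05 ± 0.11, which was not called, although its FPKM ratio met the rule.

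Hmgcs1 and Stard4 are on the list of cholesterol and fatty acid synthesis genes, while Acat2 and Lipg were named after their values were seen. Hmgcs1, which makes the precursor of mevalonate and is a classical target of the sterol-sensing factor SREBP, was listed at 156, 82.0 and 101 FPKM with vehicle, TTX and BIC, levels that are uncertain as said above. It fell in the deposited shRai1 table with TTX by 1.10 ± 0.08 (adjusted p = 2.84e-36), while its BIC change there was -0.17 ± 0.08 (adjusted p = 0.0948). Stard4 (chr18:33361075-33373470), a carrier of cholesterol between membranes, was at 15.1, 6.95 and 8.16 FPKM and fell in the deposited shRai1 tables by 0.95 ± 0.14 with TTX (adjusted p = 3.94e-10) and 0.52 ± 0.14 with BIC (adjusted p = 0.000828). Lipg (chr18:75098976-75120917), the endothelial lipase gene, was at 8.39, 3.54 and 5.46 FPKM, with deposited shRai1 changes of -1.16 ± 0.13 with TTX (adjusted p = 3.41e-18) and -0.65 ± 0.12 with BIC (adjusted p = 1e-06). Acat2 (chr17:13135908-13153591), a cytosolic thiolase gene at the head of the sterol route, was at 31.8, 19.8 and 20.5 FPKM, with deposited shRai1 changes of -0.48 ± 0.09 and -0.50 ± 0.09 (adjusted p = 7.7e-07 and 1.74e-07).

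The rest of the pathway was read from a list of 26 cholesterol and fatty acid synthesis genes, on which Hmgcs1 and Stard4 are the members. In the deposited shRai1 table for TTX, 20 of the 26 were lower (background 16.8% of all tested genes) and 0 higher (13.7%), with a median log2 change of -0.63. In that for BIC, 16 were lower and 5 higher (background 21.3% each way), with a median of -0.38. Both drugs lowered 12 of them in that arm (background 3.00%), and 11 were lower in all 4 comparisons of the deposited tables (background 1.19%). The list includes 5 genes whose interval is shared with another gene name, Fdft1, Lss, Scd2, Srebf1 and Srebf2, so their values are uncertain. Later steps, named after their values were seen, split under BIC in the deposited shRai1 table, where Dhcr7 fell by 1.00 ± 0.08 (adjusted p = 9.15e-32) and Sqle rose by 0.49 ± 0.09 (adjusted p = 3.1e-07). The list was drawn up with earlier results of these data known.

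**Figure D4:**
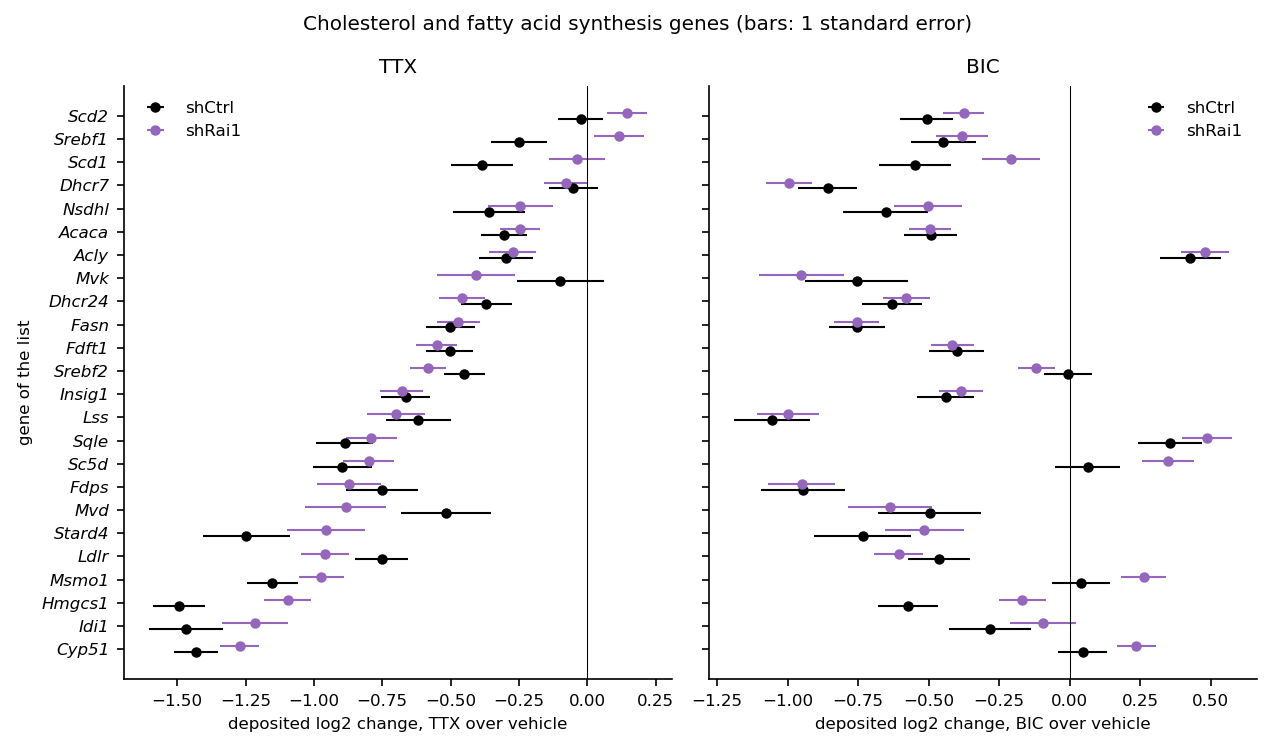
Deposited log2 change (x axis) with TTX and with BIC in shCtrl (black) and shRai1 (purple), bars 1 standard error, for 24 of the 26 listed cholesterol and fatty acid synthesis genes, each with a mean scaled count of at least 50. With TTX all points but those of Scd2 and Srebf1 in shRai1 lie left of 0, while with BIC Acly, Cyp51, Msmo1, Sc5d and Sqle lie right of 0 in both arms.

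Other lists held few members, after the conditions on names and intervals had removed genes such as Egr1, Egr2, Egr3 and Srf. Of 34 immediate-early factors Ier2 alone was a member, and in the deposited shRai1 tables, 26 of the list were lower with TTX (background 16.8%) while 21 were higher with BIC (background 21.3%), and 4 were lower under both (background 3.00%). Dusp14 was the single member among 55 activity-regulated effectors, of which 46 were lower with TTX (background 16.8%) and 46 higher with BIC (background 21.3%) in those deposited tables, and 2 lower under both (background 3.00%). Ier2 was also the single member among 29 SRF targets, of which 6 were lower under both drugs in the deposited shRai1 tables (background 3.00%), and the same number in all 4 comparisons (background 1.19%). The remaining lists with members held 1 each: Pde7b among 36 cAMP and dopamine signalling genes found, Htr5b among 66 G-protein-coupled receptors, Trpc4 among 62 channel and transmitter receptor subunits and Mcm2 among 34 cell cycle genes. Mcm2 was called in neither shRai1 response, with deposited changes of -0.11 ± 0.14 and 0.28 ± 0.14. The lists of axon guidance genes and of cortical layer factors held 0 members. Each list holds chosen names alone, and the members Ephb6 and Emx1 are on neither of these lists.

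The values of 5 others of the 16 follow. Ube2b (chr11:51798648-51813968), a ubiquitin-conjugating enzyme gene, was at 51.3, 29.4 and 31.7 FPKM and in the deposited shRai1 tables changed by -0.50 ± 0.07 with TTX and -0.48 ± 0.07 with BIC (adjusted p = 4.48e-10 and 1.09e-09). Mthfd1 (chr12:77356219-77420807), of folate metabolism, was at 11.6, 6.63 and 6.22 FPKM, with deposited shRai1 changes of -0.60 ± 0.08 and -0.45 ± 0.08 (adjusted p = 3.56e-12 and 2.16e-07). Casp1 (chr9:5298517-5307281), the inflammatory caspase gene, was low at 4.42, 2.40 and 1.03 FPKM, with deposited shRai1 changes of -0.68 ± 0.18 and -0.88 ± 0.18 (adjusted p = 0.000932 and 9.39e-06). The FPKM of Casp1 was lowest with BIC, while those of Ube2b and Mthfd1 were near each other under the 2 drugs. Pak1ip1, of ribosome assembly, was at 15.3, 9.60 and 9.23 FPKM and changed by -0.51 ± 0.10 and -0.40 ± 0.10 in the deposited shRai1 tables. 2010300C02Rik (chr1:37668521-37776656) was at 17.2, 8.32 and 7.95 FPKM and changed by -0.95 ± 0.09 and -0.54 ± 0.09 in those deposited tables (adjusted p = 2.51e-25 and 5.6e-09).

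The next members were called under 1 drug or none in shRai1. Ndufaf2, an assembly factor of respiratory complex I, was at 7.05, 2.81 and 1.65 FPKM, with deposited shRai1 changes of -0.41 ± 0.12 (adjusted p = 0.00239) and -0.14 ± 0.12. Mrpl52, of the mitochondrial ribosome, was at 39.0, 19.7 and 15.3 FPKM, with changes of -0.04 ± 0.19 and -0.40 ± 0.20 in the deposited shRai1 tables, neither called. Mtm1, a phosphoinositide phosphatase gene, was at 4.56, 2.09 and 2.43 FPKM and was called with TTX alone, at -0.28 ± 0.11 (adjusted p = 0.046) in the deposited shRai1 table. Adprm, an ADP-ribose hydrolase gene, was at 8.79, 4.48 and 2.73 FPKM and was called with BIC alone, at -0.33 ± 0.13 (adjusted p = 0.0268) in the deposited shRai1 table. Mad2l1bp, of the spindle checkpoint, was at 8.14, 3.32 and 4.43 FPKM and was likewise called with BIC alone, at -0.67 ± 0.18 (adjusted p = 0.000622) in that deposited table. Smpdl3a, a phosphodiesterase gene, was at 3.98, 2.097 and 2.49 FPKM, with deposited shRai1 changes of 0.22 ± 0.20 and 0.22 ± 0.20, neither called. Parp2, of DNA repair, was at 3.60, 1.93 and 1.63 FPKM and was called with BIC alone, at -0.53 ± 0.16 (adjusted p = 0.00315) in the deposited table.

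Lower in both shRai1 responses but not in both shCtrl tables were 6 members, Ccbl1, Ephb6, Fam195a, St6galnac5, Stac and Wdr74, named after their values were seen. Stac, which encodes a calcium channel adaptor, changed in the deposited shRai1 tables by -0.60 ± 0.11 with TTX and -0.74 ± 0.11 with BIC (adjusted p = 1.83e-07 and 4.39e-11), against -0.21 ± 0.12 and -0.58 ± 0.13 in the deposited shCtrl tables.

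Called higher with TTX in the deposited shRai1 table were Hint3, Edem2, Gsn, Cdkl3, Pcbd2, Plgrkt, Alg14 and Mnat1, with log2 changes from 0.21 ± 0.08 for Mnat1 to 0.62 ± 0.13 for Gsn. Nov, Dhx29 and Lrrc48 were higher with BIC in that arm, by 0.41 ± 0.14, 0.27 ± 0.10 and 0.50 ± 0.12 in the deposited table. Lrrc48 went the same way in the deposited shCtrl table for BIC, at 0.57 ± 0.15, although its pooled FPKM there was 3.01 with vehicle and 1.93 with BIC. Nudt2 was higher with TTX in the deposited shCtrl table, by 0.49 ± 0.19, against 8.41 FPKM with vehicle and 4.90 with TTX. For these 2 genes the authors' summaries differ in direction.

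Levels under the Rai1 shRNA were read next. Rai1 itself was not called in any of the deposited knockdown tables, with log2 changes of 0.16 ± 0.07 in vehicle, -0.12 ± 0.06 in TTX and 0.03 ± 0.07 in BIC, and these values are uncertain, since a second gene name shares its interval. An shRNA acts on finished RNA, so nascent RNA does not check the knockdown, and the groups are called by their labelled shRNA. In vehicle the deposited knockdown table called 4 members lower (5%, background 0.730% of all tested genes and 0.782% of the genes past the floors) and 0 higher (background 0.126% and 0.181%). These were Hmgcs1 at -0.47 ± 0.09, Fabp7 at -0.51 ± 0.14, Nov at -0.67 ± 0.15 and Gsn at -0.55 ± 0.14. The shCtrl vehicle libraries that made the members high are the comparator here, so these falls are a description. In the TTX knockdown table the authors' Wald test from DESeq2 called 0 members (backgrounds 0.0142% lower and 0.0142% higher, 0.0361% and 0.0241% past the floors), and in the BIC table it called 0 (0.00472% and 0.00472%, 0% and 0.0120% past the floors). At an unadjusted p under 0.05 the counts in those deposited tables were 14 members in vehicle (17.5%), 11 in TTX (13.75%) and 5 in BIC (6.25%), beside 11.9%, 4.38% and 3.94% of the genes past the floors.

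**Figure D5:**
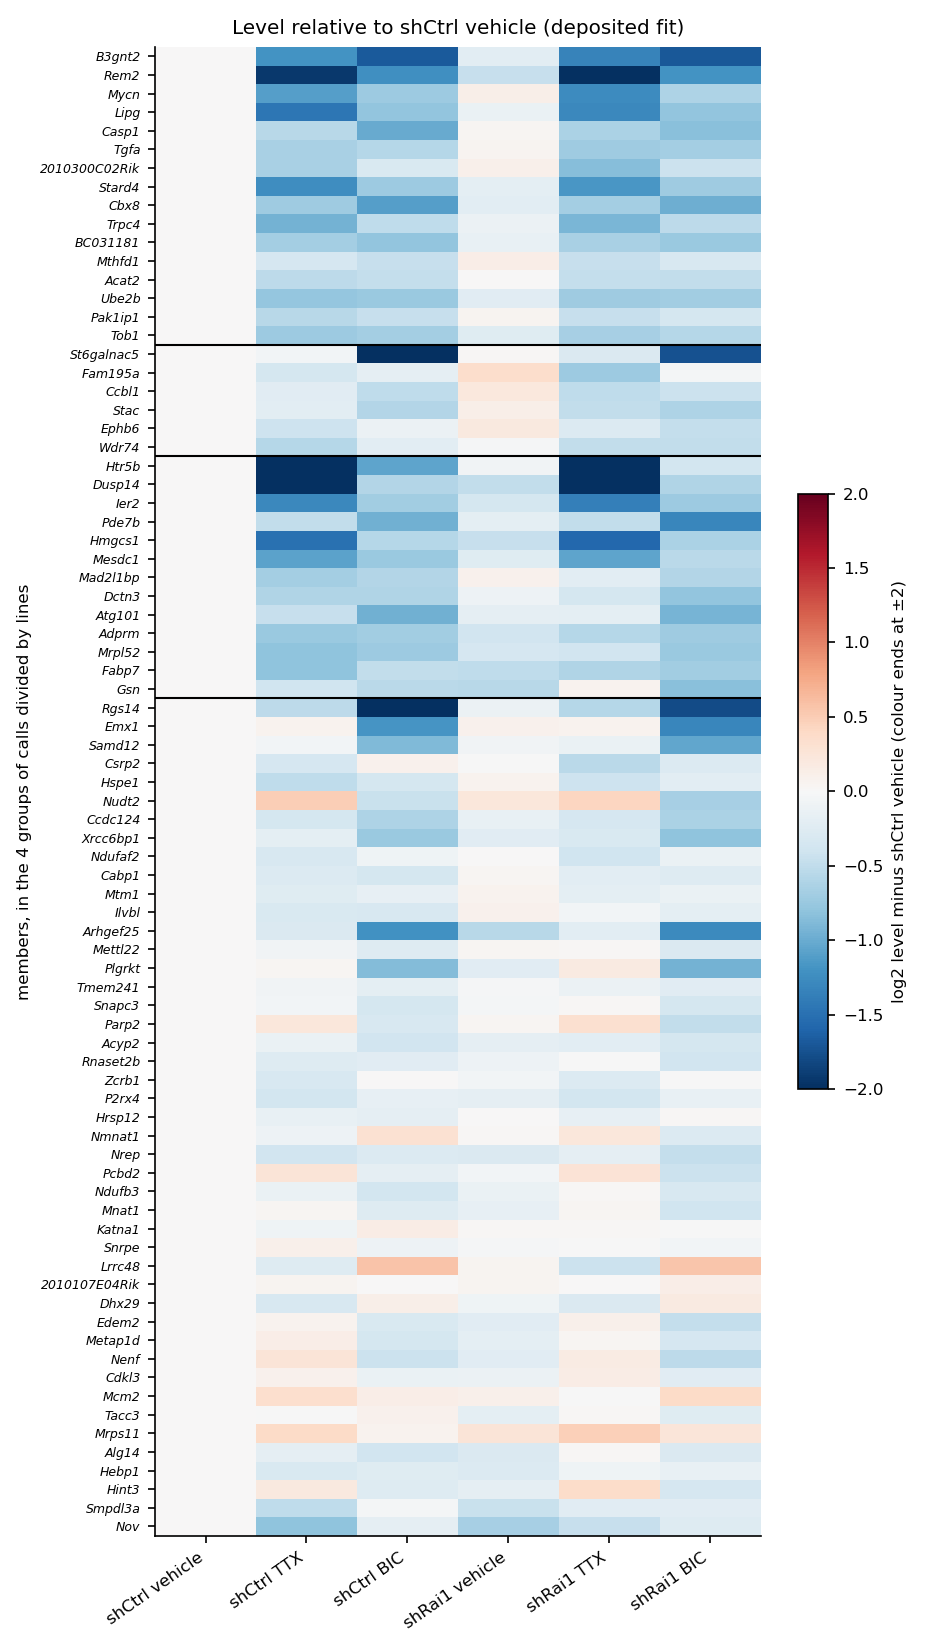
Log2 level of each of the 80 members in the 6 conditions relative to shCtrl vehicle, from the deposited fit (colour from -2 to 2; shCtrl vehicle is 0 by construction). Lines divide, from the top, the 16 members called lower in all 4 drug comparisons, the 6 lower in both shRai1 responses only, the 13 lower in both shCtrl responses only and the other 45.

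Drug responses were also set side by side between arms, with the rule's own shCtrl libraries on one side, so that what follows is a description. Computed from the deposited tables, the TTX response was called higher in shRai1 than in shCtrl for Gsn, Nov and Fabp7 (background 0.587% of tested genes, 0.722% past the floors) and lower for 0 (background 0.356% and 0.518%). For BIC 0 members passed (backgrounds 0.0219% higher and 0% lower, 0.0241% and 0% past the floors), and at an unadjusted Wald p under 0.05 there were 8 (10%, beside 3.88% of the genes past the floors). For TTX 20 members had an unadjusted Wald p under 0.05 (25%, beside 11.4% past the floors). Gsn (chr2:35111879-35163422), the actin-severing gelsolin gene, was at 5.69, 3.36 and 3.12 FPKM with vehicle, TTX and BIC in shCtrl. In the deposited tables it fell with TTX in shCtrl by 0.40 ± 0.14 and rose in shRai1 by 0.62 ± 0.13, a difference of 1.02 ± 0.19. Nov (chr15:54577483-54585316), a secreted matricellular protein gene, was at 33.6, 17.2 and 20.9 FPKM and changed by -0.81 ± 0.15 in shCtrl and 0.21 ± 0.14 in shRai1 in the deposited tables, a difference of 1.02 ± 0.21. Fabp7 (chr10:57504729-57508256), a fatty acid binding protein gene of glia and progenitors, was at 123, 74.9 and 81.1 FPKM and changed by -0.81 ± 0.14 in shCtrl and -0.08 ± 0.12 in shRai1 in the deposited tables, a difference of 0.72 ± 0.19. Each difference equals the knockdown change in TTX less that in vehicle, so it reads the same shCtrl vehicle libraries as the knockdown falls above.

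Some markers of the oligodendrocyte lineage were called in the same comparisons as these 3 genes, and fewer astrocyte markers were. Of 14 oligodendrocyte-lineage markers, 4 were lower in the deposited vehicle knockdown table (background 0.730%) with a list median of -0.67. In shRai1, 8 were higher with TTX (background 13.7%), and 6 had a TTX response that was higher in shRai1 than in shCtrl (background 0.587%). Bcas1, Gpr17 and Pdgfra share their intervals with another gene name, so their values are uncertain. All of them are among the 8, Gpr17 and Pdgfra are among the 6, and Pdgfra is among the 4. Gpr17, Cnp and Ugt8a, also among the 8, had mean scaled counts of 8.97, 38.6 and 41.9, under the floor of the rule. The summed pooled FPKM of the 14 markers in shCtrl was 208 with vehicle, 181 with TTX and 207 with BIC. With vehicle 0 of the 14 were at 0, while Mag was at 0 with BIC. Of 12 astrocyte markers, 1 was lower in that deposited table (background 0.730%) with a list median of -0.17, and 0 were called for a TTX response that differs between arms by the Wald test of the deposited changes, with 3 at an unadjusted p under 0.05. Their summed FPKM was 367, 308 and 291, with 0 of them at 0 with vehicle and Gjb6 at 0 with BIC. The part of these cells in the values of Gsn, Nov and Fabp7 was not tested. Neuron markers summed to 963, 861 and 859 FPKM over 14 genes in shCtrl. Over 12 genes each, striatal projection neuron markers summed to 301, 257 and 217, and interneuron markers to 653, 541 and 687. The sums for each list weigh genes of high level most and need not follow the calls per gene. In the deposited shRai1 table for TTX, 3 of the 12 striatal markers were lower (background 16.8%) and 7 higher (background 13.7%). There 5 interneuron markers were lower and 0 higher, and 4 of the 14 neuron markers were lower and 1 higher. In the deposited shRai1 table for BIC, 7 of the 12 striatal markers were lower and 4 higher (background 21.3% each way). Of the interneuron markers 2 were lower and 6 higher with BIC, and of the neuron markers 6 were lower and 7 higher. In the vehicle knockdown 2 of the 12 striatal markers were lower (background 0.730%) and 0 higher, with a list median of -0.23. The TTX response of 1 striatal marker was higher in shRai1 than in shCtrl (background 0.587%), and of 0 lower. The 12 microglial markers summed to 22.5, 24.8 and 32.5. With vehicle 2 of them were at 0, and 9 of 13 endothelial and mural markers were under 0.5 FPKM.

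A choice of members by the deposited scale gave a different set. With a fall of at least 1.5 times under both drugs in the authors' deposited shCtrl tables, 41 genes past the floors were found, of which 15 are members (36.6% of those 41, 18.75% of the 80). Of those 41, 30 (73.2%) were called lower under both drugs in the deposited shRai1 tables, against 27.5% of the members (background 3.00% of all tested genes, 3.84% past the floors). The 2 sets were cut on unlike measures. Of the 41, 39 were called lower under both drugs in the deposited shCtrl tables, against 29 of the 80 members. Among those 29 members the share in shRai1 was 55.2%. The same 1.5-fold choice made in the deposited shRai1 tables found 32 genes, of which 8 are members (25% of those 32, 10% of the 80).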

How the data were processed

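Bru-seq was measured in 16 libraries of 6 groups, grouped by the labels; 12 further samples, from ChIP-seq, were left out. Per the submitters' processing notes, TopHat2 2.1.0, Bowtie2 2.2.6, Bowtie and DESeq2 were used by the authors, and mm9 and dm6 are named as builds; intervals are the authors', taken as mm9 and written with 1-based starts. The authors' FPKM table holds 1 pooled FPKM and its bounds for each condition, according to its headers; depth per library is unknown here. Its knockdown columns do not follow the deposited knockdown comparisons by name, and served only in the mean over 6 conditions. The 7 comparison tables list 22919 genes, 21192 with a test. Per the file headers they give a mean normalized count, which is a signal averaged by the authors after scaling, a log2 change, its standard error, a Wald score computed by the authors, and p-values before and after adjustment. The vehicle knockdown table deposited by the authors has no gene names; 20107 were assigned by unique mean count, and the log2 changes of the tables close within 1e-09.

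The design had foreseen tests as deposited, and the authors' DESeq2 Wald tests with Benjamini-Hochberg adjustment were used. Differences between arms were tested here by a two-sided Wald test on the deposited changes and errors, adjusted over the 18241 genes whose mean reached 0.1 FPKM, and checked on simulated data. Calls have an adjusted p under 0.05. Background shares are over genes with an adjusted p, or over the 8307 genes past the floors. RefSeq names (GRCm38.p6) matched 71 members by symbol and 9 by synonym; the sterol motif was shortened after a longer spelling had matched no member.

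Named genes were the 15 members with the highest lower fold, the 3 nearest to the threshold on each side, the 3 with the largest and the 3 with the smallest summed shRai1 change, members called under knockdown or between arms, members higher in shRai1, and at most 5 members per list; other named genes were chosen after their values were seen. The members and lists were chosen with earlier results of these data known. The values of 1 listed gene are not reported here. Alternatives were other thresholds, adjustments, centring and membership rules. Python 3.11.15, numpy 2.4.6, pandas 2.3.3, scipy 1.17.1 and matplotlib 3.10.9 were used.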

Additional observations from a re-analysis of the deposited data

Results flagged for a closer look

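The TTX change of 3 members stood apart between the shRai1 and shCtrl arms. The difference, shRai1 minus shCtrl on the log2 scale, was 1.02 for Gsn, 1.02 for Nov and 0.72 for Fabp7, and each passed the threshold of the Wald test over all genes. The shCtrl vehicle and TTX libraries on one side of each difference are those that chose the members, so the test is not independent of the choice and the values are a description.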

How the results depend on the processing

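No paired analysis was possible because the files hold no values per library, and for the same reason no replicate could be left out. Over the other alternatives, 96 values stayed within 1.5 times the reported ones and 10 did not. The knockdown in TTX, the knockdown in BIC and the BIC difference between arms had 0 members called as reported. For these a repeat of 0 was counted among the 96, so the tally does not measure how stable the results are. Members at 2 times the drug levels numbered 6, of which 33.3% were lower with BIC and 16.7% with both drugs in shRai1, against 51.25% and 27.5%, and 0 were called in the vehicle knockdown or the TTX difference between arms. With a floor of 10 FPKM, 41.7% of 36 members were lower under both drugs in shRai1. Among the 29 members also called lower in both shCtrl tables, 72.4% were lower with TTX and 55.2% with both. At an adjusted p of 0.01, 2 members were called in the vehicle knockdown. The group held 32 genes when chosen on the deposited scale in shRai1 and 41 in shCtrl, the latter chosen after seeing the data; 73.2% of those 41 were lower under both drugs in shRai1. Over the settings not named so far the share lower under both drugs in shRai1 ran from 23.2% to 33.8%. For single named genes 339 values kept their side of the threshold, 14 lost it and 7 gained it, among them Hmgcs1 with BIC at an adjusted p threshold of 0.1; the causes were not tested. Wide bounds and low counts limit members near the floors, and the spread between libraries could not be seen.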
